A study of Mus musculus with 6 samples.

Results

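The genes described here are 34 interferon-induced genes, listed by name: transcription factors that carry the interferon response (Irf1, Irf7, Irf8, Isgf3g, Stat2) and the effector genes that those factors switch on. Members were found as the non-control probes of the arrays whose gene name is on the list. Isg15 was listed under its older name G1p2 and stands as Isg15 in the files, and Isgf3g is the older name of Irf9. Of the 34 genes, 33 had a probe, with 50 probes in all of 41174 on the array. Dtx3l had no probe under its name. Oas1g was above background on 0 of the 6 arrays and was not tested, so 32 members were among the 19597 genes tested. Of these, Oas3 and Mx1 passed the filter on dim probes through the ligated kidneys alone.

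Both kidneys of 3 CD-1 mice, an outbred stock, were measured on 6 single-colour arrays, 1 array per kidney. In each animal the left ureter had been tied completely (ligated kidney), which blocks the outflow of urine and is used as a model of renal fibrosis. The right kidney of the same animal, whose ureter was not tied, is the contralateral kidney and the study's internal control. No sham-operated or unoperated animal was among the samples analysed here, so both groups come from animals with 1 obstructed kidney. The labels number the mice 495, 485 and 512, and they give neither their age and sex nor how long the ureter had been tied. The tissue label names the kidney, whereas the cell type label names primary cells; which of these was extracted is not settled by the sources used here. Markers of the proximal tubule, the main epithelium of the renal cortex, were above background in every kidney (8 of 8 genes). Values of 3 kidneys are given in the order of mice 495, 485 and 512 throughout.

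Interferons are cytokines released when cells sense foreign or misplaced nucleic acid, or when lymphocytes are activated. Type I interferons bind the Ifnar1 and Ifnar2 receptor and, through the kinases Jak1 and Tyk2, assemble a complex with Stat2 and Irf9 that binds the interferon-stimulated response element (ISRE) in promoters. Interferon gamma, made by T and NK cells, acts through the Ifngr1 and Ifngr2 receptor, Jak1 and Jak2, and the gamma-activated site (GAS) in promoters. Most of the genes listed here respond to type I interferon, while Irf1, Irf8 and the large GTPases of the Gbp and Irg families are classical targets of interferon gamma, and many respond to both.

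The promoters show how the 2 elements are placed in these genes. RefSeq promoter windows (assembly GRCm38.p6, 250 bases before to 50 bases after an annotated start) matched 27 of the 34 genes. They were searched on both strands for an ISRE core, that is GAAA, any 2 bases and GAAA again (TTTC, any 2 bases and TTTC on the other strand), and for the GAS letters TTCNNNGAA, which read the same on either strand. Matches of 1 motif may overlap each other or the other motif. Stretches from 10 members are printed below as examples of how the matches are placed, chosen after the matches were seen, on the strand of the gene, 5′ to 3′, with the ISRE core matches in capitals (for Irf1 and Irf8, the GAS matches).
Isg15: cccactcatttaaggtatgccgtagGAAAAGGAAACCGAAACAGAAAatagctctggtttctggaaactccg
Ifit1: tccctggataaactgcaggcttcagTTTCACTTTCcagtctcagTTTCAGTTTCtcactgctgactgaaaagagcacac
Oas1a: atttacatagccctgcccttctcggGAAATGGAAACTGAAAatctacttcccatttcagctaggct
Oas1g: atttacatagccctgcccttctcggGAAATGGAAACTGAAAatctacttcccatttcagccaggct
Bst2: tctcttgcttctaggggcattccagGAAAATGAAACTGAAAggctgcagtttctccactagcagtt
Gbp2: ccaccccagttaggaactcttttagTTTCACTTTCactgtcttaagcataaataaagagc
Igtp: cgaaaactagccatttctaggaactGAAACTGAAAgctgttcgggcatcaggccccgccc
Stat2: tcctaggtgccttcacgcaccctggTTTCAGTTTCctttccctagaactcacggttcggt
Irf1: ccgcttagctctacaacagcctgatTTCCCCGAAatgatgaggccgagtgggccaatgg
Irf8: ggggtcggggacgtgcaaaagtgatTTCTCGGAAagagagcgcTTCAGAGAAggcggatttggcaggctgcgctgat

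In GRCm38.p6 these stretches lie at chr4:156200850-156200921 (minus strand) for Isg15, chr19:34640760-34640838 (plus) for Ifit1, chr5:120907505-120907570 (minus) for Oas1a and chr5:120887591-120887656 (minus) for Oas1g. Those of Bst2, Gbp2 and Igtp lie at chr8:71537562-71537627 (minus), chr3:142620579-142620638 (plus) and chr11:58199497-58199556 (plus). Stat2, Irf1 and Irf8 are shown from chr10:128270251-128270310, chr11:53769899-53769957 and chr8:120736162-120736238, all on the plus strand. The promoter of Isg15, a ubiquitin-like modifier, held 3 overlapping ISRE core matches from base -78 to base -57, counted from its annotated start. Ifit1 and Ifit3 each held 2 separate ones. The stretches of the neighbouring genes Oas1a and Oas1g were identical at 65 of 66 bases, with the same pair of overlapping matches, although only the probe of Oas1a gave a signal above background.

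An ISRE core was present in 15 of the 27 members with a window (55.6%), counting a gene once over all its windows, against 1079 of all 27025 genes with a window (3.99%) and 1131 of all 32851 windows (3.44%). GAS letters were present in 8 of 27 members (29.6%), against 9.55% of all genes and 8.30% of all windows. Oas1a, Bst2, Ifitm3 and Igtp held both motifs, and in Bst2 and Ifitm3 a GAS match overlapped an ISRE core. These shares describe letters in a window of this length; they are neither binding sites nor causes. The 14 tested members with an ISRE core had a median log2 fold change of 1.74, with 8 that rose, and the 11 without one had 2.04, with 5 that rose. For the GAS letters the median was 1.85 in the 8 members with them, of which 5 rose, and 1.73 in the 17 without, of which 8 rose. Neither difference was tested. No window was matched for Oas2, Mx1, Mx2, Iigp1, Usp18, Parp9 and Parp14.

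**Figure D1:**
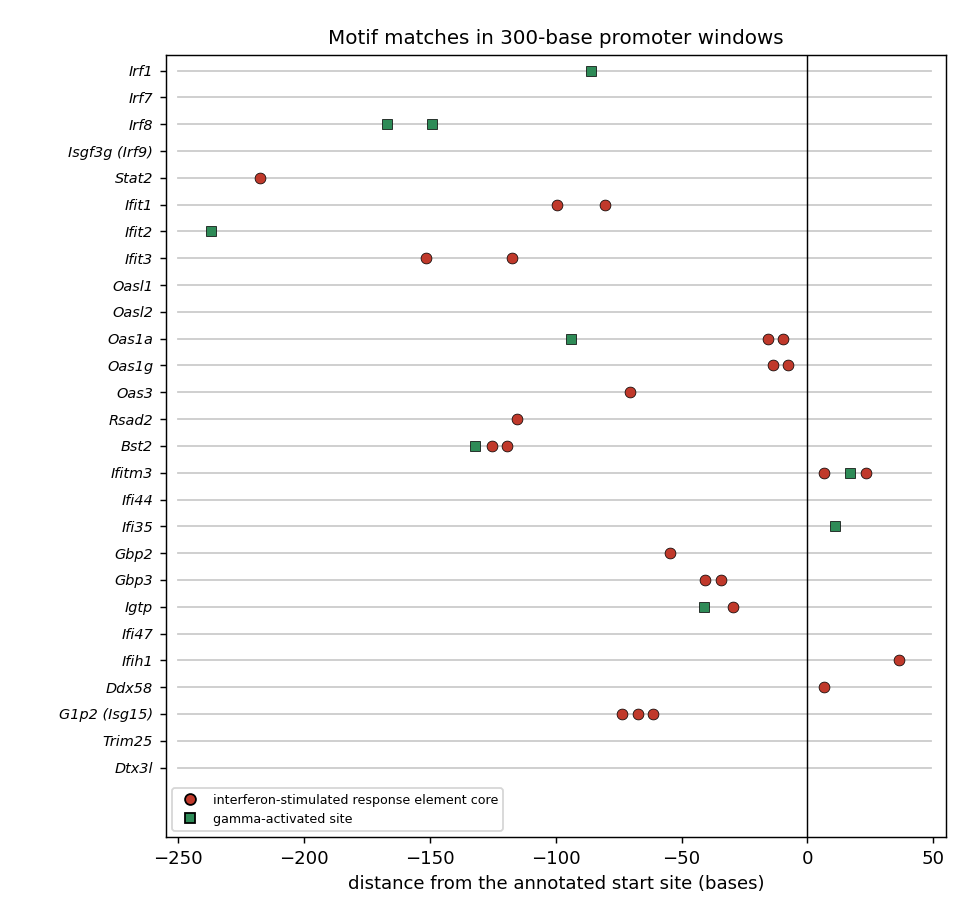
Positions of the motif matches in the promoter windows of 27 interferon-induced genes, with the distance from the annotated start in bases on the x axis (0 is the start, negative values lie before it) and 1 line per gene. Circles mark the ISRE core, present in 15 genes, and squares the GAS letters, present in 8; Isg15 has 3 overlapping circles.

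The array reports each gene through 60-base probes. The array's annotation puts the probe of Isg15 on chromosome 17 (mm8), whereas RefSeq places the gene on chromosome 4. The Oas1a probe, at chr5:121158956-121159015 (minus strand, mm8), is shown because Oas1a has close relatives on the same chromosome.
Oas1a probe: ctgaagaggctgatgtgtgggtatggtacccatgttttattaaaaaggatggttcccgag

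The Isg15 values below are therefore those of the probe annotated as Isg15. Members of the Oas, Ifit, Gbp, Ifitm and Mx families are related in sequence, and signal shared between relatives cannot be told apart here.

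One array stood apart before any comparison. For markers of the proximal tubule and of macrophages, the contralateral kidney of mouse 512 lay between the other contralateral kidneys and the ligated ones. The summed level of 8 proximal tubule markers, on a linear scale where 1 is the array's 75th percentile, was 774, 876 and 163 in the contralateral kidneys and 67.4, 118 and 81.2 in the ligated ones. That of 12 macrophage and monocyte markers was 22.9, 19.3 and 95.6 in the contralateral and 224, 222 and 253 in the ligated kidneys. This did not hold for every marker list. Among the contralateral kidneys, that of mouse 512 was the lowest for neutrophil and endothelial markers, at 1.07 and 6.80. Mouse 512 was also the only animal on slide 2, so animal and slide cannot be told apart. Across the whole array, 3128 of 19597 genes were higher in the ligated kidney (16%) and 2879 were lower (14.7%) at a Benjamini-Hochberg adjusted p under 0.05 in limma, fitted with the mouse as a block, and all genes together had a median change of -0.01 (log2). The unscaled 75th percentile of the signal was 671 to 1106 on contralateral and 1068 to 1432 on ligated arrays, with 65.7% to 69.5% and 72.1% to 74.7% of spots well above background.

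Interferon-induced genes were higher in the ligated kidney as a list. Of the 32 members tested, 16 rose and 0 fell, against a background of 16% of all genes that rose and 14.7% that fell, and 31 of 32 log2 fold changes were above 0. Their median log2 fold change was 1.76 (n = 3 pairs) and the range -0.20 to 3.03. Of the 16 that rose, 14 rose at least 2-fold. The adjusted p values of those 16 lay between 0.0222 and 0.0470, and 13 of the 16 others lay between 0.05 and 0.1, so the count depends closely on where the threshold stands. Levels of the 3 ligated kidneys lay entirely above those of the 3 contralateral kidneys for 29 of 32 members, against 24.7% of all genes. Oas3 and Mx1, kept by the ligated kidneys alone, are among the 29, and Oas3 is among the 16 that rose. Genes kept in that way made up 958 of the 3128 rises of all genes. With only probes above background on all arrays kept, 18 of 30 members rose and 0 fell. Of all genes, 14.1% rose and 19.3% fell in that fit. In RNA pooled from many cells, a change in the number of cells that express a gene and a change of RNA per cell cannot be told apart.

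**Figure D2:**
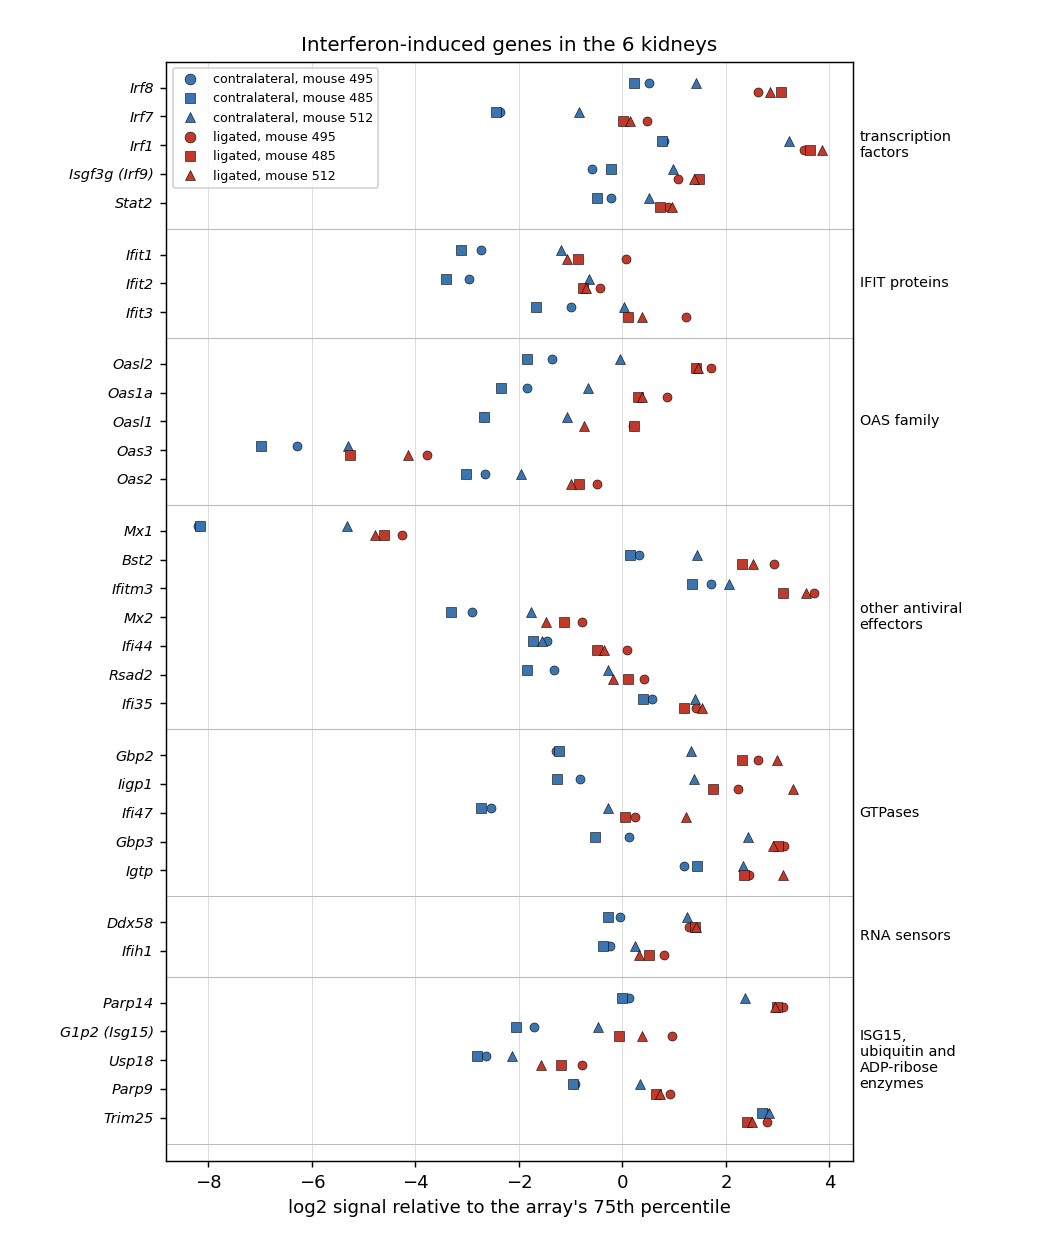
Level of each tested interferon-induced gene in each of the 6 kidneys, as log2 signal relative to the array's 75th percentile on the x axis, with genes grouped by role. Blue symbols are contralateral and red symbols ligated kidneys, and the shape gives the mouse; the blue triangles of mouse 512 lie to the right of the other blue symbols for 31 of 32 genes.

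Among the transcription factors, 3 of 5 rose. Irf8, which directs the development of macrophages and dendritic cells, had log2 levels of 0.52, 0.22 and 1.43 in the contralateral kidneys and 2.61, 3.07 and 2.84 in the ligated ones. Every ligated kidney was above every contralateral one, and the log2 fold change was 2.12 ± 0.32 (SE, n = 3 pairs; 4.35-fold, adjusted p = 0.0283). A second Irf8 probe rose by 1.96. Irf7, the factor that amplifies type I interferon production, stood at -2.37, -2.45 and -0.85 against 0.48, 0.01 and 0.14. Its groups did not overlap either, and it rose 4.28-fold (log2 2.10 ± 0.42, adjusted p = 0.0364). Stat2, the transactivating part of the type I complex, moved less, from -0.23, -0.50 and 0.52 to 0.89, 0.72 and 0.95 (log2 0.92 ± 0.22, 1.89-fold, adjusted p = 0.0470), and lost its call with centring on the median (log2 0.62, adjusted p = 0.0734), with the spike-in scaling (0.112) and without the mouse block (0.0562).

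Irf1 and Irf9 lay just beyond the threshold. Irf1, an early target of interferon gamma, had levels of 0.79, 0.76 and 3.22 in the contralateral and 3.50, 3.62 and 3.85 in the ligated kidneys. The contralateral kidney of mouse 512 thus lay 2.44 above the mean of the other contralateral kidneys and close to the ligated ones. The log2 fold change was 2.06 ± 0.52 (adjusted p = 0.0519), with a second probe at 2.24 (0.0572), and Irf1 passed with quantile normalization (0.0485), the spike-in scaling (0.0432) and normexp (0.0434), among others. Irf9, the DNA-binding part of the type I complex (Isgf3g in the files), stood at -0.60, -0.22 and 0.99 against 1.08, 1.48 and 1.38 (log2 1.26 ± 0.33, adjusted p = 0.0557). Its probes differed in their call: the dimmer one, at -4.85, -4.37 and -3.54 against -3.31, -2.86 and -3.06, rose by 1.18 (adjusted p = 0.0452 over all probes).

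The IFIT proteins, which bind foreign RNA and block its translation, gave 3 of 3 members with a positive value and 0 past the threshold. Ifit3 had the smallest p of them: its levels were -0.99, -1.67 and 0.02 in the contralateral and 1.22, 0.11 and 0.37 in the ligated kidneys (log2 1.45 ± 0.42, adjusted p = 0.0654). For Ifit1 they were -2.74, -3.12 and -1.19 against 0.06, -0.86 and -1.08 (log2 1.73 ± 0.59, adjusted p = 0.0905). Both showed the same arrangement, with a wide gap in mice 495 and 485 and almost none in mouse 512. Ifit2 stood at -2.97, -3.40 and -0.64 against -0.44, -0.76 and -0.70, so its groups overlapped, and its difference in mouse 512 was -0.06 beside 2.53 and 2.64 in the other animals (log2 1.71 ± 0.63, adjusted p = 0.105). A second Ifit2 probe gave 2.66, 2.84 and 0.08.

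Of the oligoadenylate synthetase family, some of whose products make the messenger that activates RNase L, 4 of the 5 tested members rose. Oasl2, a family member with ubiquitin-like domains, went from -1.36, -1.84 and -0.04 to 1.72, 1.42 and 1.46, a 6.13-fold rise (log2 2.62 ± 0.41, adjusted p = 0.0295). Oas1a had levels of -1.84, -2.35 and -0.66 in the contralateral and 0.86, 0.30 and 0.38 in the ligated kidneys, and rose 4.37-fold (2.13 ± 0.40, adjusted p = 0.0342). In both genes the ligated kidneys were close together while the contralateral kidney of mouse 512 stood above the others.

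Oas3 was dim: it was above background on 1 of 3 contralateral and 3 of 3 ligated arrays, at -6.29, -6.99 and -5.31 against -3.78, -5.27 and -4.14. It rose at least 2.52-fold, where "at least" sets each contralateral array to no less than the lowest signal among its probes above background (fitted log2 1.80 ± 0.30, adjusted p = 0.0312). With normexp background correction, which shrinks dim probes, the value was 0.08 and Oas3 was not called (adjusted p = 0.835). Its other probe, above background on 0 contralateral arrays, rose by a fitted 2.97. Oas2 rose by 1.77 ± 0.31 (adjusted p = 0.0322), while its other probe was above background on 0 arrays. Oasl1 stood at 2.04 ± 0.61 (adjusted p = 0.0703), with differences of 2.88, 2.91 and 0.34. Oas1g, whose 60-base probe is given a span of only 19 bases in the array's annotation, is a bound and not a measured absence.

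Other antiviral effectors gave 3 members that rose of 7. Bst2 (tetherin), which holds budding virus at the cell surface, had levels of 0.32, 0.15 and 1.44 in the contralateral and 2.92, 2.30 and 2.51 in the ligated kidneys, a 3.85-fold rise (log2 1.94 ± 0.35, adjusted p = 0.0323). Ifitm3, a membrane protein that hinders viral entry, went from 1.71, 1.34 and 2.06 to 3.71, 3.11 and 3.54 (3.36-fold, log2 1.75 ± 0.17, adjusted p = 0.0222). It had the smallest adjusted p of the members, and its differences were alike in the 3 mice, at 2.00, 1.77 and 1.47.

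Ifi44 was the exception in mouse 512. Its contralateral levels were -1.45, -1.72 and -1.55, so that kidney was not raised, and its ligated levels were 0.10, -0.50 and -0.36 (log2 1.32 ± 0.16, 2.50-fold, adjusted p = 0.0236). The second, dimmer Ifi44 probe stood at -4.49, -5.14 and -4.54 against -3.55, -3.78 and -4.10, at 0.92 and just short of the threshold (adjusted p = 0.0502 over all probes).

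The remaining effectors were not called. Mx1, a dynamin-like GTPase that traps viral nucleocapsids, was above background on 1 of 3 contralateral arrays, that of mouse 512, with levels of -8.21, -8.17 and -5.32 against -4.26, -4.61 and -4.78. Its ratio was at least 2.27-fold (fitted log2 2.68 ± 0.77, adjusted p = 0.0640; 0.10 with normexp). Its relative Mx2 stood at 1.53 ± 0.45 (0.0685) and Rsad2 (viperin, which makes a chain-terminating nucleotide) at 1.25 ± 0.43 (0.0921), with 0 of its 3 probes called. Ifi35 had overlapping groups and 0.58 ± 0.21 (0.0984).

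The interferon-inducible GTPases, which attack the vacuoles of intracellular pathogens, had a median log2 fold change of 2.37, and 4 of 5 rose. Gbp2, above background on all 6 arrays, had levels of -1.28, -1.23 and 1.33 in the contralateral and 2.63, 2.31 and 2.98 in the ligated kidneys, an 8.18-fold rise (log2 3.03 ± 0.51, adjusted p = 0.0311). Iigp1 went from -0.83, -1.27 and 1.38 to 2.24, 1.75 and 3.29, a 6.34-fold rise (2.66 ± 0.30, adjusted p = 0.0233). Ifi47 had levels of -2.55, -2.74 and -0.28 against 0.25, 0.05 and 1.24 and rose 5.17-fold (2.37 ± 0.33, adjusted p = 0.0265).

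In these 3 genes the ligated kidney of mouse 512 was the highest of the 6 kidneys and its contralateral kidney the highest of its group, so that both kidneys of that animal were raised. Igtp (Irgm3) rose by 0.98 ± 0.17 (adjusted p = 0.0315), and its differences were 1.25, 0.92 and 0.77. Without the mouse block Ifi47 (adjusted p = 0.0545) and Igtp (0.0844) were not called, and Igtp was not called on the spike-in scale either (0.0765). Gbp3 stood at 2.34 ± 0.68 (0.0656), with levels of 0.12, -0.54 and 2.43 against 3.12, 3.01 and 2.91: its ligated kidneys agreed closely and the contralateral ones spread widely.

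Neither of the 2 cytosolic RNA sensors passed on its brightest probe. Ddx58 (RIG-I), which recognises uncapped viral RNA, had levels of -0.04, -0.28 and 1.24 in the contralateral and 1.29, 1.40 and 1.42 in the ligated kidneys (log2 1.07 ± 0.35, adjusted p = 0.0818). Its 4 probes had values from 1.07 to 1.53, and 1 of them rose: from -3.52, -3.94 and -2.70 to -1.73, -1.78 and -2.09 (1.52, adjusted p = 0.0444 over all probes). Ifih1 (MDA5), the sensor of long double-stranded RNA, stood at 0.67 ± 0.25 (0.106), and 0.87 on its second probe (0.0549).

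Of the 5 tested genes of ISG15 conjugation and of ubiquitin or ADP-ribose transfer, 2 rose. The Isg15 probe went from -1.71, -2.06 and -0.47 to 0.95, -0.06 and 0.38, a 3.57-fold rise (log2 1.84 ± 0.40, adjusted p = 0.0401). Usp18, which removes Isg15 from its targets and dampens the type I receptor, went from -2.63, -2.82 and -2.13 to -0.79, -1.18 and -1.58 (2.54-fold, 1.34 ± 0.31, adjusted p = 0.0454). For both genes the groups did not overlap, and for Usp18 the call was lost with quantile normalization (0.0585), with centring on the median (0.0503) and on the spike-in scale (0.0668).

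Parp14, an ADP-ribosyltransferase, had levels of 0.13, 0.00 and 2.37 in the contralateral and 3.11, 2.99 and 2.94 in the ligated kidneys (log2 2.18 ± 0.58, adjusted p = 0.0560). Its probes differed in their call, and 1 of 3 rose, from -1.94, -2.22 and -0.68 to -0.37, -0.38 and 0.27 (1.45, adjusted p = 0.0282 over all probes). Parp9, the partner of Dtx3l, stood at 1.28 ± 0.35 (0.0580). Trim25, the ubiquitin ligase that activates RIG-I, was the member with a negative value: 2.76, 2.70 and 2.84 against 2.79, 2.42 and 2.50 (log2 -0.20 ± 0.16, adjusted p = 0.358). That sign was positive with quantile normalization (0.18) and on the spike-in scale (0.15), and its second probe stood at -0.04.

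**Figure D3:**
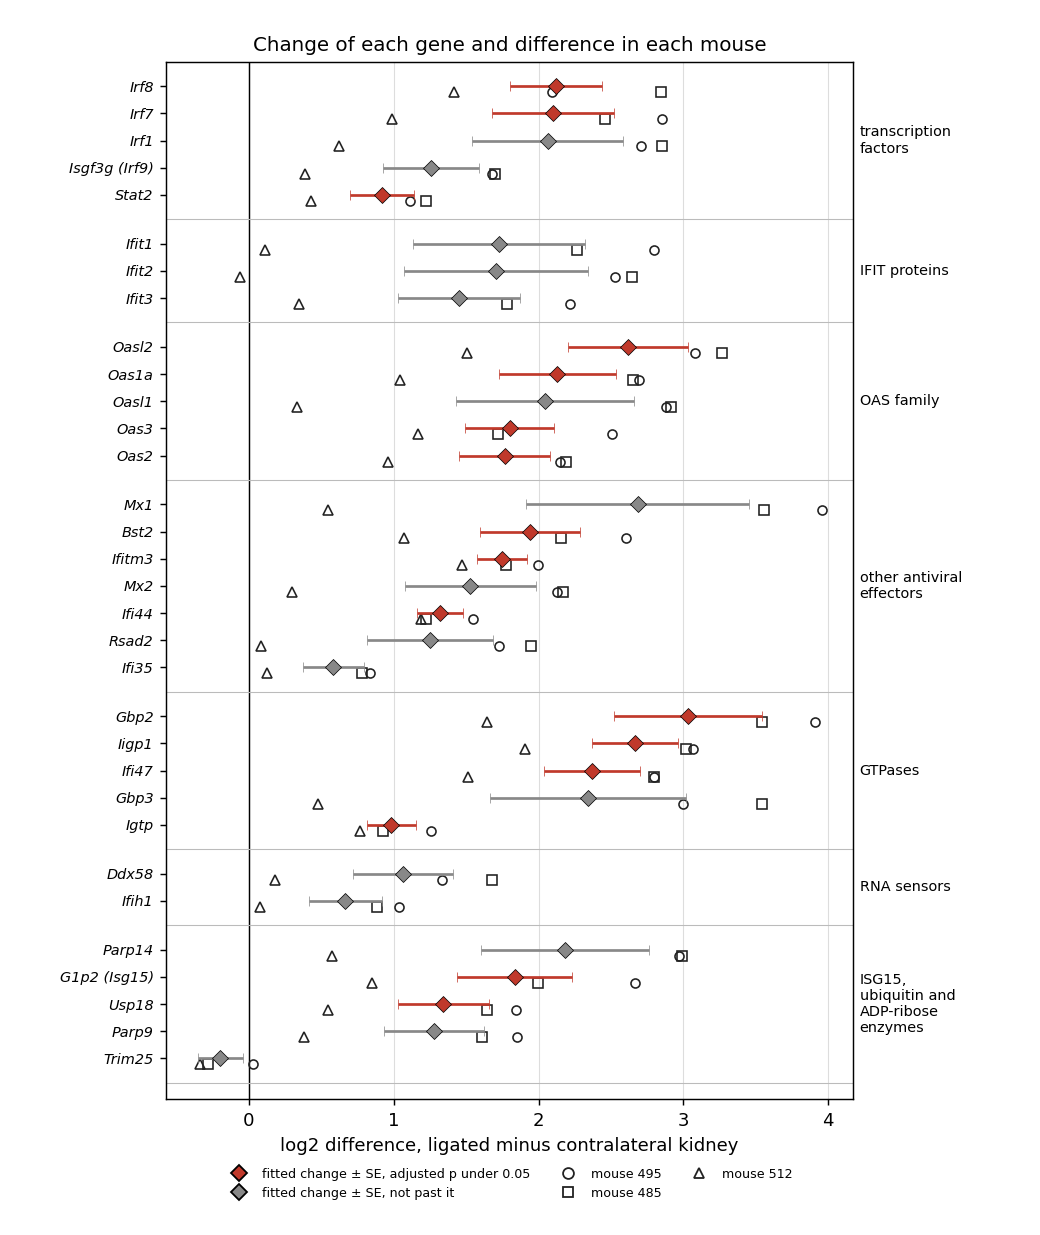
Fitted log2 difference of ligated minus contralateral kidney for each tested interferon-induced gene (diamonds, with the SE as bars) and the difference within each mouse (open symbols), grouped by role. Red diamonds are the 16 genes past an adjusted p of 0.05, and the open triangles of mouse 512 are the leftmost open symbols for all 32 genes.

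The size of the difference depended on the animal. Over the 32 members the median differences were 2.36, 2.16 and 0.56. Mouse 512 gave the lowest of the 3 signed differences for 32 of 32 members, against 38.6% of all genes. That share takes rising and falling genes together, and for a falling gene the lowest value is the largest fall. For Trim25 (0.03, -0.28 and -0.34) it was the largest in size. The proximal tubule markers, lower in the ligated kidneys, also changed least in mouse 512 (medians of -3.50, -2.89 and -1.22). Of the members, 30 of 32 were higher in the ligated kidney of all 3 mice, against 34.3% of all genes. The contralateral kidney of mouse 512 stood above both other contralateral kidneys for 31 of 32 members, against 39.4% of all genes. Across the 32 members, the differences of mice 495 and 485 correlated at r = 0.93, and those of mouse 512 with them at 0.504 and 0.465; over all genes these were 0.919, 0.633 and 0.676. Those correlations are across genes measured on the same arrays, and genes are not independent replicates.

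Measured against the mean of the other 2 contralateral kidneys, the members had a median of 1.37 in the contralateral kidney of mouse 512, 1.98 in its ligated kidney and 2.25 in the mean of the other ligated kidneys. The gap left within that animal is given here by role. The 3 IFIT genes had a median difference of 0.11 in mouse 512 beside 2.53 and 2.27 in mice 495 and 485. The 2 RNA sensors had 0.13 beside 1.19 and 1.28. For the other antiviral effectors it was 0.54 beside 2.00 and 1.95, and for the ISG15 and ubiquitin or ADP-ribose group 0.55 beside 1.85 and 1.64. For the GTPases it was 1.51 beside 3.00 and 3.02, for the OAS family 1.04 beside 2.69 and 2.65, and for the transcription factors 0.63 beside 2.09 and 2.46. In the ligated kidney of mouse 512, the GTPases had a median of 3.88 above the mean of the other 2 contralateral kidneys, beside 3.04 for the other ligated kidneys. Gbp3 alone of the GTPases was lower in the ligated kidney of mouse 512, at 3.12 beside 3.27. The IFIT genes also went the other way, with medians of 1.85 and 2.53. These are medians of 2 to 7 genes in 1 animal, and neither the differences between mice nor those between roles were tested.

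**Figure D4:**
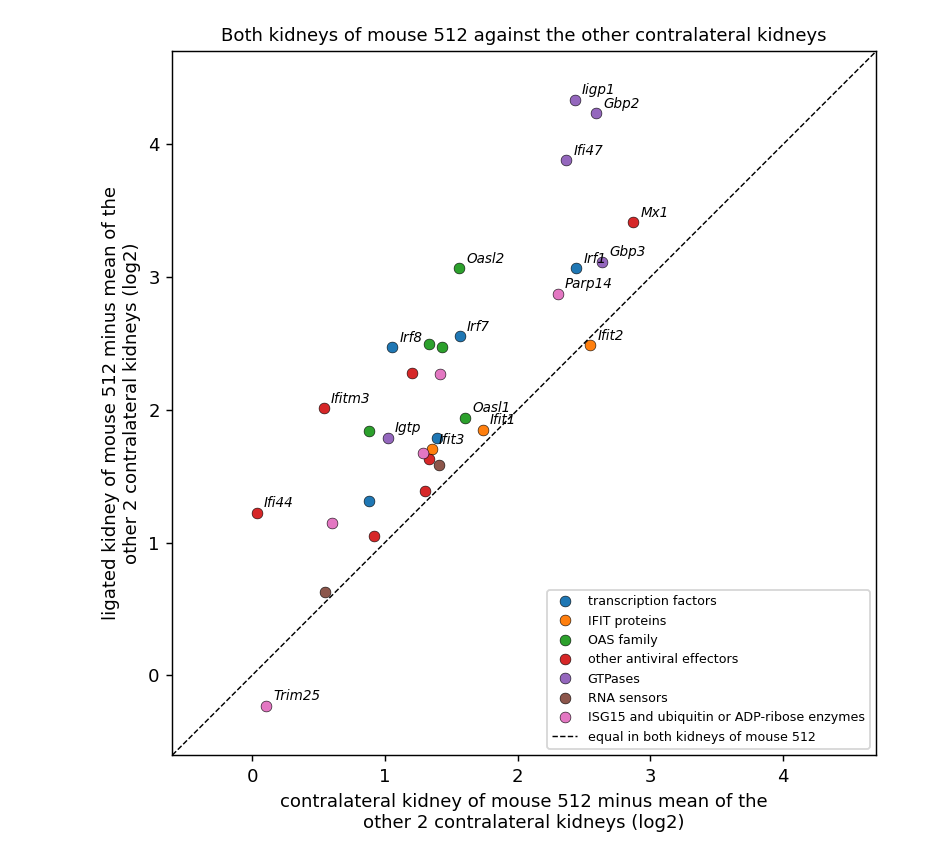
Interferon-induced genes in the contralateral (x axis) and the ligated kidney (y axis) of mouse 512, each as log2 difference from the mean of the other 2 contralateral kidneys, coloured by role. Points on the dashed line are equal in both kidneys of this mouse: Ifit2 lies beside it at 2.55 and 2.49, while Iigp1 lies well above it at 2.43 and 4.34.

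Counts of members that passed followed the animals in the fit. Without mouse 512, 31 of 32 members rose (26.8% of all genes did), and the median was 2.25. Leaving out only its contralateral kidney, in an unpaired fit of 5 arrays, also gave 31 of 32 (26% of all genes), with a median of 2.27. The member that did not rise in these fits was Trim25. Without mouse 495 or without mouse 485, 0 of 32 members and 0 of all genes passed in limma. In each of these 2 fits 14 members had an unadjusted p under 0.05 in either direction, beside 4975 of 19723 and 5012 of 19768 genes. With all mice, 29 members and 9829 of 19597 genes did. The members' median was 1.43 without mouse 495 and 1.58 without mouse 485. Blocking on the slide instead of the mouse gave 25 members that rose (18.3% of all genes), no filter on dim probes 10 of 33 (6.13%), and no block 14 (14%). With no filter, the 6 that lost their call were Irf7, Stat2, Oas1a, Igtp, Isg15 and Usp18. With no block, Stat2, Oas3, Igtp and Ifi47 lost theirs, and Oasl1 and Mx2 passed. Fitted probe by probe, 21 of the 47 member probes tested rose, against 15.3% of all probes.

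**Figure D5:**
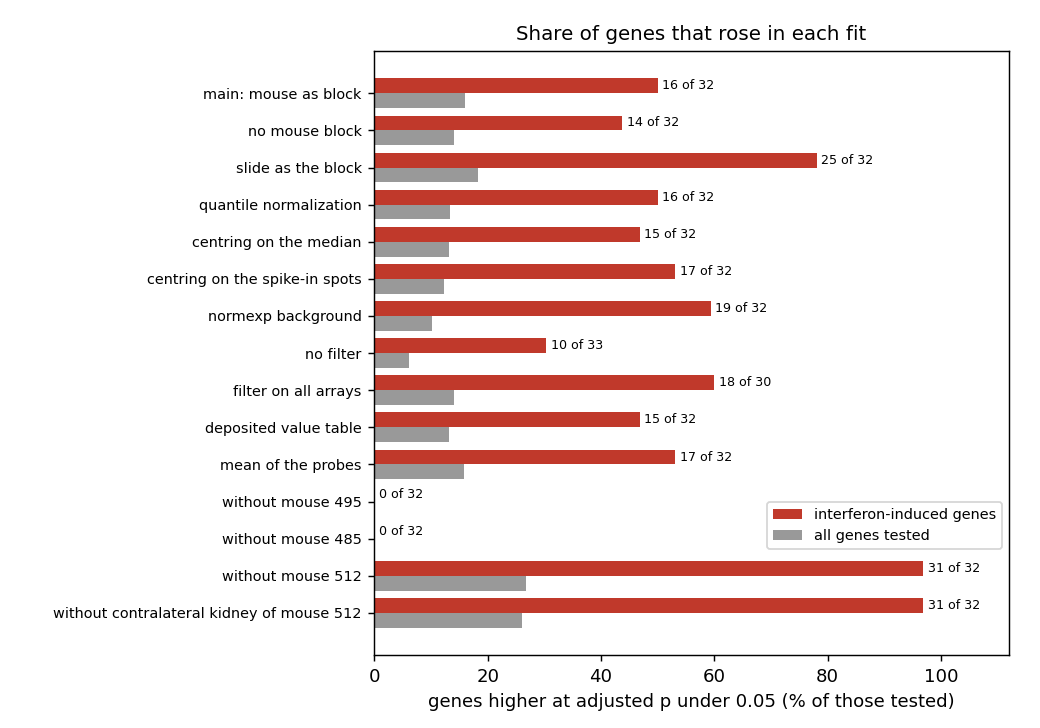
Share of the tested interferon-induced genes (red) and of all genes tested (grey) that were higher in the ligated kidney at an adjusted p under 0.05, in percent, for the fit described in the text and each alternative. Numbers beside the red bars count the members; they run from 0 of 32 without mouse 495 or 485 to 31 of 32 without mouse 512.

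Some of the interferons that could act on these genes were looked at too. The list held Ifng and a few type I genes, and neither the other type I genes nor any type III interferon gene. Among 11 interferon and receptor genes, 7 were tested, of which 3 rose and 0 fell (median 0.72); in this and the following lists the shares of all genes are again 16% that rose and 14.7% that fell. The type I interferon genes Ifnb1, Ifna1, Ifna2 and Ifna4 were not well above background on any of the 6 arrays (0 each). Ifng, the gene of interferon gamma, was above background on 1 contralateral and all 3 ligated arrays, with levels of -7.13, -8.03 and -6.11 against -4.53, -5.41 and -2.78. It rose at least 3.38-fold (fitted log2 2.85 ± 0.22, adjusted p = 0.0222), and it passed the filter on dim probes through the ligated kidneys alone. Ifngr1, its ligand-binding receptor chain, rose by 1.08 ± 0.22 (0.0376) and the type I receptor gene Ifnar1 by 0.72 ± 0.18 (0.0487).

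Signal transducers and their inhibitors had 3 of 10 members that rose and 0 that fell, with a median of 0.56. Socs1, a feedback inhibitor of the Jak kinases, rose by 1.93 ± 0.21 (adjusted p = 0.0229), the phosphatase gene Ptpn6 (SHP-1) by 0.70 ± 0.16 (0.0425) and Jak2 by 0.68 ± 0.14 (0.0371). Other probes of Ptpn6 reached down to -0.04.

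Of 14 tested genes of nucleic acid sensing, 6 rose and 2 fell, at a median of 0.72; the share that fell was close to that of all genes (14.7%). Tlr7, the endosomal sensor of single-stranded RNA, rose by 2.52 ± 0.32 (adjusted p = 0.0247), Zbp1, a sensor of left-handed nucleic acid, by 2.51 ± 0.25 (0.0222), and the DNA-binding Ifi204 by 2.34 ± 0.34 (0.0276). Those that fell, chosen after their values were seen, were Mavs, the adaptor of the RNA sensors (-0.80 ± 0.17, 0.0387), and the kinase gene Tbk1 (-0.65 ± 0.14, 0.0384, with a second probe at -0.01). On the spike-in scale 0 genes of the pathway lists fell.

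A further list of interferon-induced genes outside the 34 had 20 of 30 tested members that rose and 1 that fell, at a median of 1.57; Gbp2b, Cxcl9 and Cxcl11 were kept by the ligated kidneys alone. Cxcl9, the T cell attracting chemokine induced by interferon gamma, was above background on 2 contralateral arrays and rose at least 10.2-fold (fitted log2 3.47 ± 0.42, adjusted p = 0.0237). The GTPase gene Gbp2b (listed as Gbp1) rose at least 3.34-fold (fitted 3.16 ± 0.15, 0.0222), and Gbp5 rose 8.82-fold (3.14 ± 0.69, 0.0415). Plscr1, a phospholipid scramblase gene chosen after its value was seen, fell by 0.55 on the log2 scale (0.0497), but its other probes ranged up to 0.66. Cxcl10, also chosen after its values were seen, was not called (1.44 ± 0.90, adjusted p = 0.260): its differences were 3.37, 1.93 and -0.96.

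Markers of leukocytes were also higher in the ligated kidneys, and their pattern over the animals differed between the lists. Of 12 macrophage and monocyte markers, 10 rose and 0 fell. Their summed level in the contralateral kidney of mouse 512, 95.6, exceeded the 22.9 and 19.3 of the others, as the interferon-induced genes did. The sum rests mostly on the bright genes Cd14 and Lyz2, at log2 5.39 and 5.25 in that kidney. Cd14 was not called, and its difference in mouse 512 was -0.73. Counted by gene, that kidney was the highest of its group for 10 of 12 markers. The median difference of the 12 markers was 3.78, 3.83 and 1.61. T and NK cell markers had 5 of 10 members that rose, with Cd2 among them kept by the ligated kidneys alone, and a summed level of 0.712 to 0.829 in contralateral and 2.66 to 4.97 in ligated kidneys. Their median difference was 1.28, 1.85 and 2.61, and the contralateral kidney of mouse 512 was the highest of its group for 4 of 10. B and plasma cell markers rose in 4 of 7 tested (34.2 to 46.5 against 76.6 to 169), with a median difference of 0.92, 1.34 and 3.06 and that kidney the highest for 3 of 7. The median differences of these lymphocyte lists were thus largest in mouse 512, whereas the interferon-induced genes had their smallest there. Dendritic cell markers rose in 8 of 9 (1.48 to 2.96 against 6.02 to 7.14), but 4 of those 8 had passed the filter on dim probes through the ligated kidneys alone. Their median difference was 1.44, 1.87 and 1.08, and the contralateral kidney of mouse 512 was the highest of its group for 7 of 9. Neutrophil markers rose in 2 of 4 (1.07 to 2.12 against 1.76 to 10.96), 1 of them kept by the ligated kidneys alone. Their median difference was 2.95, 1.94 and 0.86, with that contralateral kidney the highest for 2 of 4. The macrophage, dendritic cell and neutrophil lists thus had their smallest median difference in mouse 512, as the interferon-induced genes did.

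No marker with a probe was below background on all 6 arrays (0 in each list), but Siglech, of plasmacytoid dendritic cells, and Clec9a, of cross-presenting dendritic cells, were above it on 0 contralateral and all 3 ligated arrays, and Cd209a and Flt3 on 1 and 2 contralateral arrays. Endothelial markers rose in 4 of 6 (6.80 to 9.96 against 11.03 to 13.6), and proximal tubule markers fell in 6 of 8 (163 to 876 against 67.4 to 118). The part of these cell types in the interferon-induced genes was not tested.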

How the data were processed

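In all, 6 Cy3 arrays were analysed. The deposited scanner tables (1 per array) give a processed intensity, linear, background-subtracted and detrended by Agilent Feature Extraction per the file headers (version 10.5.1.1; the submitters' processing notes name 9.1). The deposited flags are values of 0 or 1. The authors' deposited value table holds a ratio, each signal divided by its array's median. Control spots and outlier flags (43 to 79 of 43379 spots per array) were left out, and 0 spots were saturated. Values are log2 of the signal minus the array's 75th percentile. Probes well above background (at least 0.5 of their spots) on all 3 arrays of a group were kept, and the brightest by mean stood for its gene. For 24496 of 41174 probes a current symbol, changed or not, was found by RefSeq accession (GRCm38.p6, for names alone). Probe positions are mm8, per the file headers.

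Two-sided limma tests (version 3.58.1, R 4.3.3; lmFit, then eBayes) compared the groups. The mouse was a block. There were 2 residual degrees of freedom, and eBayes supplied another 2.05. P-values were adjusted (Benjamini-Hochberg) over all 19597 genes, or over 29093 probes where "over all probes" is written. Pairing comes from the mouse numbers. Deviations from group means correlated between the kidneys of a mouse (r = 0.194, 0.481 and 0.272), more than between mice (at most 0.018). Deviations from a mean of 3 arrays constrain each other, so the values within and between mice are not independent. For mouse 512, animal and slide cannot be told apart here either. With 3 animals, their number limits the precision. Alternatives varied the block, scaling, background, filter, probe choice, source table and mice.

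The members and lists were chosen with earlier results of these data known. Named with full values were, in each role, the 3 called members with the largest change (with none called, the smallest p) and members whose probes disagreed; from each pathway list, the 3 called genes with the largest change; others as stated. Some items of these lists and probes are not reported here. The fit was run on simulated data with equal, independent noise for every gene and the same change in each mouse. That setting lacks the differences between mice seen here, so it does not show how the fit handles them.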

Additional observations from a re-analysis of the deposited data

How the results depend on the processing

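The median log2 change of the interferon-induced genes stayed between 1.29 (normexp) and 2.27 (without the contralateral kidney of mouse 512) over the 14 alternatives. The count that rose, 16, was 25 with the slide as the block and 10 of 33 with no filter on dim probes; with 1 mouse or that contralateral kidney left out, it ran from 0 to 31. Without the replicate block, that is without the pairing by mouse, it was 14. In that fit 4 of the 32 members lost and 2 gained a call. Trim25, never called, changed sign to 0.18 with quantile normalization and 0.15 with the spike-in scaling.

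For all genes, rises numbered 3128, but 1990 with normexp (with 2786 falls) and 1745 with no filter, and from 0 to 5412 with 1 mouse or kidney left out. Falls numbered 2879, but 5933 with centring on the median or the deposited value table (with 2561 rises), 635 with the spike-in scaling (with 2411 rises) and 892 with no filter, and from 0 to 6028 in the leave-one-out fits. Of the 60 tested genes of the pathway lists together, 32 rose and 3 fell, against 16% and 14.7% of all genes. With 1 mouse or kidney left out, 0 to 48 of the 60 rose, against 0% to 26.8% of all genes. Centring on the median moved the median change of all genes to -0.32, the spike-in scaling to 0.34, normexp to -0.18, no filter to -0.23 and the filter on all 6 arrays to -0.11. On arrays, signal near background limits Oas3, Mx1 and Ifng, whose folds are lower bounds.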
